A study of Homo sapiens with 6 samples.

Results

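Transcripts of 45 listed genes that encode histone deacetylases, sirtuins and subunits of corepressor complexes were followed in U937T:PLZF-RARa, a human cell line derived from the monocytic line U937. The genes were chosen by name, and each was represented by its brightest probe set, the one with the highest mean log2 intensity over the 6 arrays among the probe sets annotated to that gene alone. Such a probe set was found for 44 of the 45 genes, out of 19775 genes represented in the table, and NCOR1 was not analysed here. The line carries a construct for the fusion protein PLZF-RARa, which is kept off by tetracycline in the medium. The uninduced group holds 3 samples kept on tetracycline and the induced group 3 samples washed and cultured without it for 48 h. All 6 samples share the same line, serum-containing RPMI medium and the selection drugs puromycin and G418, and each was hybridised to its own Affymetrix array. No sample lacks the construct, so loss of tetracycline and gain of the fusion protein cannot be told apart, and neither the number of clones behind the line nor separate cultures behind the replicates are given in the labels. The p-values therefore reflect the spread among these 6 arrays, which may be technical.

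Histone deacetylases remove acetyl groups from histone tails and other proteins, and most act on chromatin only within larger complexes. Class I enzymes are the catalytic cores of the SIN3, NuRD, CoREST and NCoR complexes, class IIa enzymes have little activity of their own and bridge transcription factors to NCoR and HDAC3, and sirtuins use NAD as a cosubstrate. The retinoic acid receptor RARA recruits NCoR in the absence of its ligand, and fusion proteins of acute promyelocytic leukaemia are known for holding such corepressors at their target genes, PLZF-RARA through its PLZF part as well.

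The sequences just before the annotated starts of 4 genes are shown because these genes carry the patterns described further on: the class IIa deacetylases HDAC4, which fell, and HDAC9, which rose, and the SIN3 complex genes SIN3A and SAP30, which both rose. Each is the 250 bases before the start, 5′ to 3′ on the gene's strand, from RefSeq (GRCh38.p14), for the start farthest upstream where the table lists several. HDAC4 and HDAC9 have 5 listed starts each and SIN3A has 2. Capitals mark matches, on either strand, to AGGTCA (a half-site of retinoic acid receptors), CACGTG (the E-box bound by MYC), CCAAT (the NF-Y box) and GGGCGG (the GC box).
HDAC4 (chr2:239401650-239401899, minus strand): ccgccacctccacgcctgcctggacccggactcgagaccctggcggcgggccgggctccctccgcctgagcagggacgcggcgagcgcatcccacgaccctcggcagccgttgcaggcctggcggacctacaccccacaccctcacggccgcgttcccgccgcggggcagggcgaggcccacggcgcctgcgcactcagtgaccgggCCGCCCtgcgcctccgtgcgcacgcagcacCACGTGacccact
HDAC9 (chr7:18086575-18086824, plus strand): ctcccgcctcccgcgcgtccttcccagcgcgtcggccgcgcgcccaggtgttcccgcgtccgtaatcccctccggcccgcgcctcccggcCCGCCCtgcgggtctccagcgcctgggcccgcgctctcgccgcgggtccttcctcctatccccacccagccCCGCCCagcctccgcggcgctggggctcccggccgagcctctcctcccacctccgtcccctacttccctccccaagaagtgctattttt
SIN3A (chr15:75455816-75456065, minus strand): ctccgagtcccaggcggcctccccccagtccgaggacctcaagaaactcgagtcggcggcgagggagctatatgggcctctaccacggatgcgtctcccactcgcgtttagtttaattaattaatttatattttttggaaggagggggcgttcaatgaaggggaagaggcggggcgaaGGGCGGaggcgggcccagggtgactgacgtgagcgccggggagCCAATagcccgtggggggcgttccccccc
SAP30 (chr4:173370704-173370953, plus strand): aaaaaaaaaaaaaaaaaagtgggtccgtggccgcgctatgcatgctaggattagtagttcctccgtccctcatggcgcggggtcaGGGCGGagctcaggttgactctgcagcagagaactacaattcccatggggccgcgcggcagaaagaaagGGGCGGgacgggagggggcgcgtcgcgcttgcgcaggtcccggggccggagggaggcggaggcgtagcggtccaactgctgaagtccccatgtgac
HDAC4 held 1 CACGTG, 13 to 8 bases before the start, and 1 GC box, HDAC9 held 2 GC boxes, SIN3A held 1 CCAAT and 1 GC box, and SAP30 held 2 GC boxes. None of these 4 windows held AGGTCA, which says only that these letters are not there.

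A window was found for 41 of the 44 genes, and for 27305 genes in all. AGGTCA stood in 1 of the 41 windows (2.44%, BCOR) against 12.2% of all windows. CACGTG stood in 7 (17.1% against 6.46%), CCAAT in 16 (39.0% against 33.0%) and GGGCGG in 28 (68.3% against 42.2%). The median GC content was 71.2% in the 41 windows and 57.6% in all windows, so the windows differ in base composition as well as in these matches. These shares are descriptions of the windows, with no test.

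Expression is given as log2 intensity of GCRMA-processed probe sets, and a probe set was tested where it exceeded a log2 value of 4 on at least 3 of the 6 arrays. Groups were compared with limma over all 20552 tested probe sets, and "rose" and "fell" are used for adjusted p-values under 0.05 (Benjamini-Hochberg). Arrays correlated at r = 0.9963 to 0.9976 within a group and at 0.932 to 0.938 between groups. Uninduced replicate 3 was dimmer than the others: its median over tested probe sets was 8.21, against 8.37 to 8.44 on the other arrays, and it was the lowest of its group for 32 of the 40 tested members. Of the 5 RARA probe sets 1 rose, 1 fell (203749_s_at) and 3 did not pass or were not tested. The one that rose, 211605_s_at, went from 1.87 ± 0.10 to 7.58 ± 0.17 (SD, n = 3 each). It passed the filter through the induced arrays alone and its rise was at least 12.0-fold (adjusted p = 1.90e-07 by limma). For ZBTB16, the gene of PLZF, 205883_at went the other way, from 5.25 ± 0.21 to 3.29 ± 0.59 (SD, n = 3 each; limma, adjusted p = 8.12e-04), and whether it lies in the part of the gene that the fusion holds is not given in the sources used here. For GAPDH, whose control probe sets lie at both ends of the transcript, the log2 value at the 3' end exceeded that at the 5' end by 0.503 ± 0.025 in uninduced and by 0.579 ± 0.034 in induced samples (SD, n = 3; two-sided exact permutation p = 0.1, the smallest that 3 against 3 allows). For ACTB the 3' end exceeded the 5' end by 1.25 ± 0.08 in uninduced and by 1.41 ± 0.10 in induced samples (SD, n = 3, two-sided exact permutation p = 0.2). The part of this measure of RNA quality in the results was not tested. Of 15 myeloid markers 9 were tested, of which 3 rose and 6 fell, where 35.8% of all tested genes rose and 30.7% fell. The 3 with the smallest adjusted p were the neutrophil granule proteases PRTN3 (9.90-fold lower) and ELANE (6.95-fold lower) and the leukocyte phosphatase PTPRC (3.41-fold higher), and the part of these markers in the results was not tested. The monocyte markers CD14 and CSF1R lay below the filter in both groups, at 2.10 and 2.09 for CD14 and at 3.17 in both for CSF1R. All 4 T cell markers, the 3 B cell and the 2 erythroid markers with a probe set failed the filter. In a bulk RNA sample, fewer cells of a kind and less RNA per cell cannot be told apart.

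Of the 44 genes 40 passed the filter. HDAC11, TLE1, CTBP2 and BCOR did not, with group means from 2.22 to 3.18, and no change can be seen at that level. Of the 40 tested genes 18 rose (45.0%) and 5 fell (12.5%), while over all 9836 tested genes 35.8% rose and 30.7% fell. In all 23 were called, or 57.5% against 66.5% of all genes, so calls were no more frequent here than elsewhere on the arrays. A change of at least 2-fold was called for 3 of the 40 genes (7.50%), HDAC9, HDAC5 and MTA3, against 19.6% of all genes, and all 3 were rises. The groups did not overlap for 30 of the 40 (75% against 74.4%), 22 of them with the induced arrays above and 8 with them below. The median log2 difference was 0.22, beside 0.02 over all tested genes, and the median absolute difference was 0.26, beside 0.42. After quantile normalization 19 rose and 8 fell, after median centring 17 and 9, and without uninduced replicate 3, the dimmest array, 17 and 7. Over all tested genes the same settings gave 3446 rises and 3979 falls, 3257 and 3627, and 3277 and 3262, against 3519 and 3019 in the values as reported, so falls became more frequent there as well.

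**Figure D1:**
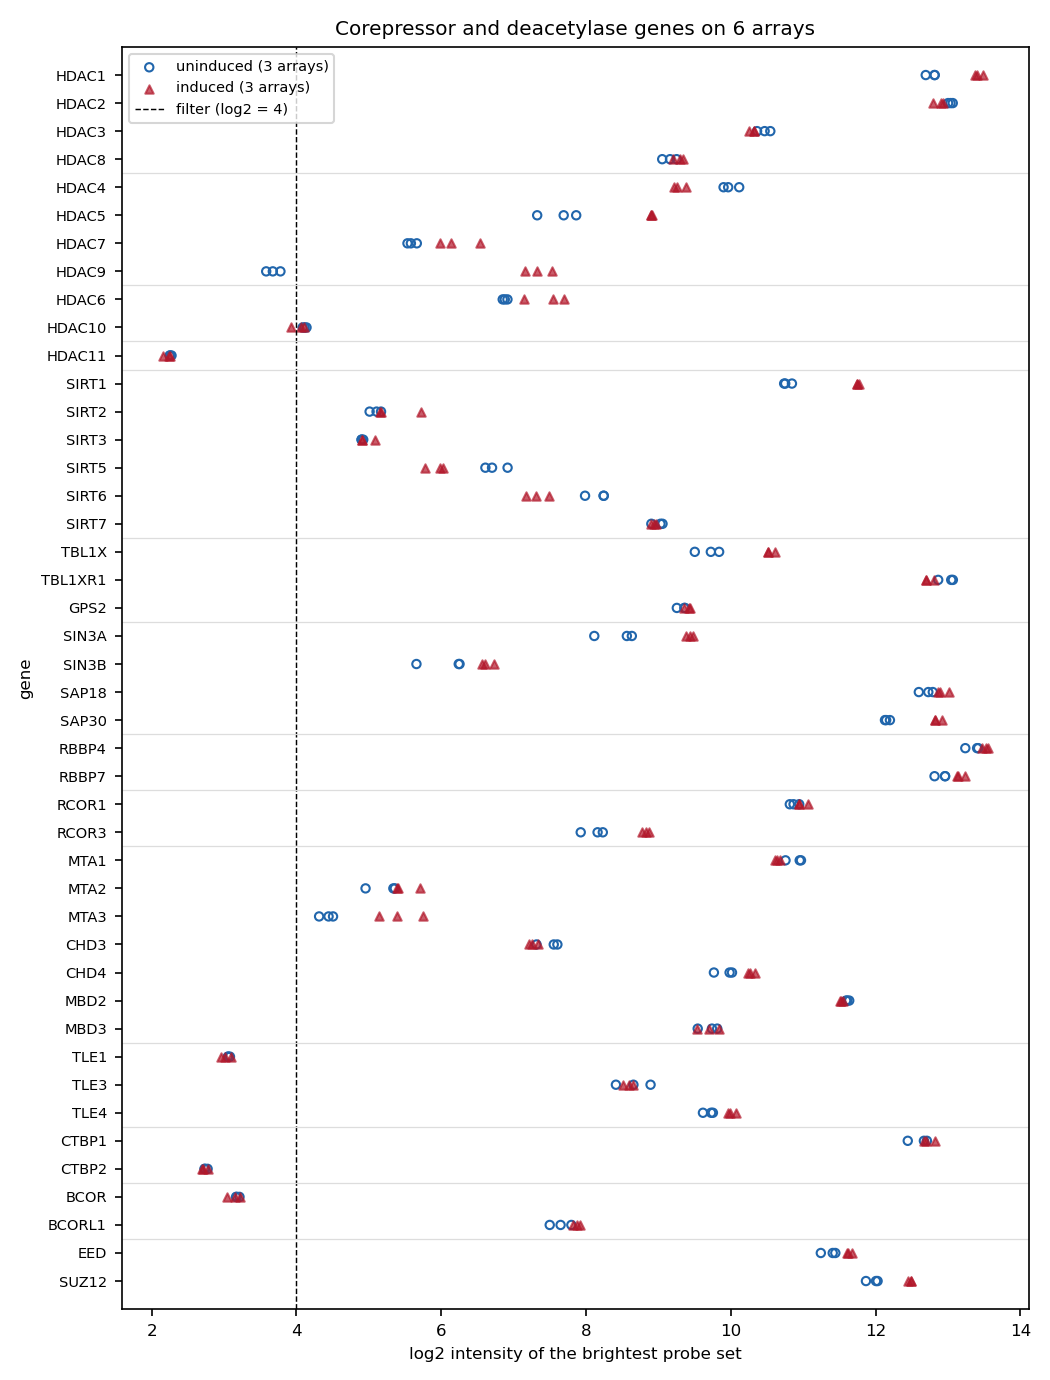
Log2 intensity of the brightest probe set of each of the 44 genes (rows, grouped by complex or enzyme class) on each array. Open circles are the 3 uninduced and triangles the 3 induced arrays, and the dashed line is the filter at a log2 value of 4. HDAC9 lies left of the line on all uninduced arrays and right of it on all induced arrays, and HDAC11, TLE1, CTBP2 and BCOR lie left of it on all 6.

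**Figure D2:**
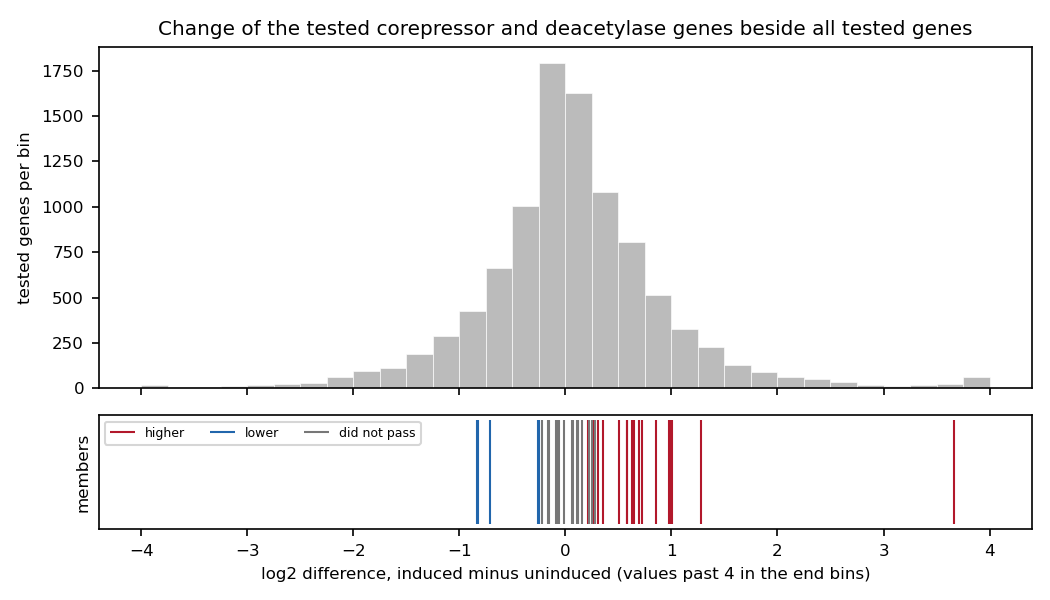
Log2 differences (induced minus uninduced) of all 9836 tested genes as a histogram, with values past 4 in the end bins, above the differences of the 40 tested corepressor and deacetylase genes as vertical lines coloured by call. Most lines lie within 1 of zero, and HDAC9 is plotted at its fitted value of 3.66, although its uninduced arrays lie below the filter and its change is known only as at least 10.1-fold.

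Among the class I deacetylases 1 of 4 rose and 3 did not pass the test, where 35.8% of all tested genes rose and 30.7% fell. HDAC1, a catalytic subunit of the SIN3, NuRD and CoREST complexes, read 12.81, 12.82 and 12.69 in uninduced replicates 1 to 3 and 13.41, 13.38 and 13.48 in induced replicates 1 to 3. Every induced array lay above every uninduced one, and HDAC1 was 1.57-fold higher (log2 difference 0.65 ± 0.07, SE; limma, adjusted p = 1.53e-04). HDAC2, its close paralogue and partner in the same complexes, read 13.04, 13.07 and 13.00 against 12.94, 12.80 and 12.91. The difference of -0.15 missed the threshold (limma, adjusted p = 0.0746), although the groups did not overlap, and it passed after median centring, with array weights and with a trended and robust eBayes (adjusted p from 0.0269 to 0.195 over the alternatives). HDAC3, the enzyme of the NCoR complex, read 10.55, 10.47 and 10.36 against 10.25, 10.32 and 10.32, a difference of -0.16 (limma, adjusted p = 0.0848). It passed after quantile normalization, after median centring, with array weights and without uninduced replicate 3 (-0.21, adjusted p = 0.0261), in a range from 0.0104 to 0.245. HDAC8, a class I enzyme that works outside these complexes, differed by 0.12 at its brightest probe set (limma, adjusted p = 0.196) and by -0.29 and -0.39 at 2 others, of which 223909_s_at fell (adjusted p = 0.0277).

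All 4 class IIa deacetylases were called, 3 upward and 1 downward, where 66.5% of all tested genes were called. HDAC9 read 3.67, 3.78 and 3.58 in uninduced and 7.53, 7.16 and 7.32 in induced samples. It lay below the filter on all uninduced arrays and passed it through the induced arrays alone, and it was at least 10.1-fold higher (limma, adjusted p = 8.96e-07). Its other 4 probe sets stayed below the filter in both groups, so the rise rests on 205659_at. HDAC5 read 7.86, 7.69 and 7.33 against 8.91, 8.90 and 8.90. It was 2.42-fold higher (log2 difference 1.28 ± 0.13, SE; limma, adjusted p = 1.65e-04), its second probe set, 229408_at, differed by 0.20 and did not pass (adjusted p = 0.0865), and the mean over both rose by 0.74. HDAC7 read 5.66, 5.58 and 5.53 against 6.13, 5.99 and 6.54 and was 1.54-fold higher (limma, adjusted p = 0.00659). The HDAC7 difference ran from 0.43 to 0.74 over the alternatives that gave a value, and its other probe set, 236326_at, lay below the filter. With a stricter filter, at a log2 value of 6, HDAC7 was not tested. HDAC4 went the other way, from 9.96, 10.12 and 9.90 to 9.21, 9.39 and 9.26. It was 1.63-fold lower (log2 difference -0.71 ± 0.08, SE; limma, adjusted p = 2.87e-04), and its second tested probe set, 228813_at, fell by 0.79 on the log2 scale. The groups did not overlap for any of the 4 enzymes, which was also so for 74.4% of all tested genes. For HDAC9 this followed from the filter, which its induced arrays alone passed.

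HDAC6, a mainly cytoplasmic class IIb enzyme that deacetylates tubulin, read 6.88, 6.85 and 6.91 against 7.14, 7.70 and 7.54. It was 1.49-fold higher (limma, adjusted p = 0.00913), with induced replicate 1 closest to the uninduced arrays. HDAC10, the other class IIb enzyme, known as a polyamine deacetylase, lay just above the filter at 4.11 ± 0.03 and 4.03 ± 0.10 (SD, n = 3 each) and differed by -0.08 (limma, adjusted p = 0.332). It passed after quantile normalization alone among the alternatives, at -0.19 (adjusted p = 0.0229, in a range up to 0.777). HDAC11, the single class IV enzyme, read 2.26 ± 0.01 and 2.22 ± 0.06, below the filter.

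Of the 6 sirtuins 1 rose, 2 fell and 3 did not pass, where 35.8% of all tested genes rose and 30.7% fell. SIRT1, a nuclear deacetylase of histones, p53 and other factors, read 10.84, 10.75 and 10.74 in uninduced and 11.77, 11.74 and 11.75 in induced samples. The induced arrays lay close together and above all uninduced arrays, and SIRT1 was 1.97-fold higher (log2 difference 0.98 ± 0.06, SE; limma, adjusted p = 1.47e-05). SIRT6, a chromatin-bound sirtuin with roles in DNA repair and glucose metabolism, read 7.99, 8.25 and 8.24 against 7.30, 7.18 and 7.49. It was 1.78-fold lower (limma, adjusted p = 5.23e-04), and its second probe set, 233179_x_at, fell by 0.44 on the log2 scale. SIRT5, a mitochondrial sirtuin that removes succinyl and malonyl groups, read 6.70, 6.61 and 6.92 against 5.77, 6.02 and 5.98 and was 1.76-fold lower (limma, adjusted p = 4.68e-04), at the 1 of its 6 probe sets that was tested. The 3 others were SIRT2, mainly cytoplasmic, SIRT3, the main mitochondrial deacetylase, and SIRT7, which is nucleolar. They differed by 0.25, 0.06 and -0.06, with 95% intervals of -0.12 to 0.62, -0.11 to 0.23 and -0.22 to 0.10, and the groups overlapped in each. SIRT2 and SIRT3 lay close to the filter, with means of 5.09 and 4.91 in uninduced and 5.35 and 4.97 in induced samples. SIRT7 passed after median centring (-0.14, limma, adjusted p = 0.0498, in a range up to 0.765).

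**Figure D3:**
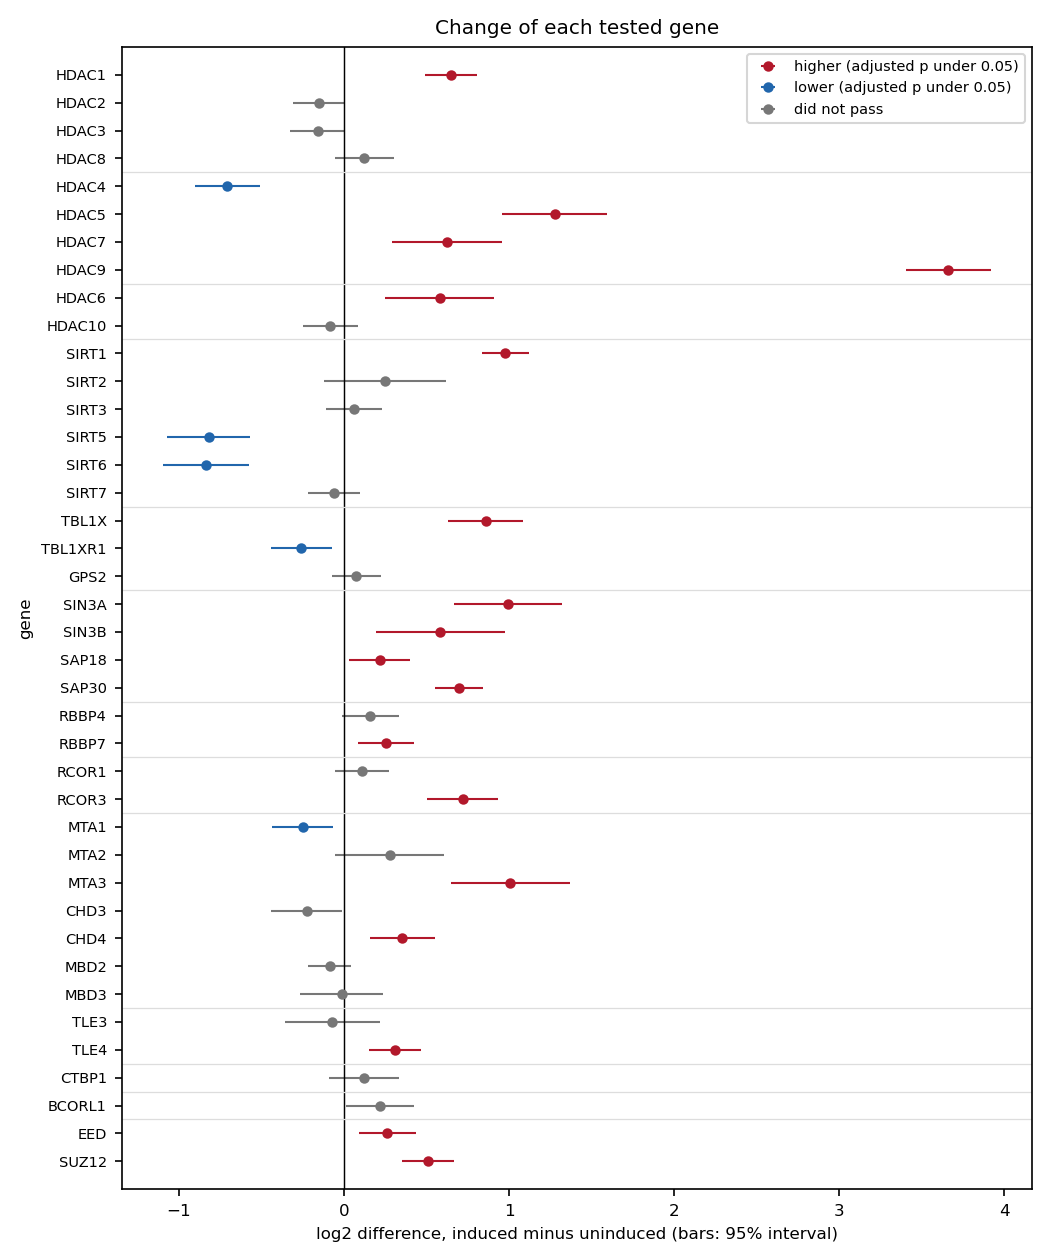
Log2 difference (induced minus uninduced) of the 40 tested genes with 95% intervals from limma, grouped by complex or enzyme class and coloured by call. HDAC4, SIRT5, SIRT6, TBL1XR1 and MTA1 are the 5 genes that fell, and HDAC9, HDAC5 and MTA3 are the 3 that rose at least 2-fold.

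In the NCoR complex the paralogous WD-repeat subunits TBL1X and TBL1XR1, which link the complex to histones and to its own turnover, went in opposite directions. TBL1X read 9.72, 9.84 and 9.50 in uninduced and 10.52, 10.61 and 10.51 in induced samples. It was 1.81-fold higher (log2 difference 0.86 ± 0.10, SE; limma, adjusted p = 2.30e-04), and all 4 of its tested probe sets rose, by 0.57 to 0.86. TBL1XR1 read 13.07, 13.04 and 12.86 against 12.69, 12.81 and 12.70 and was 1.20-fold lower (log2 difference -0.26; limma, adjusted p = 0.0233). Of its 5 tested probe sets 3 fell and 2 did not pass. The TBL1XR1 call was lost without uninduced replicate 1, uninduced replicate 2, induced replicate 1 or induced replicate 3, where the difference was -0.22, -0.23, -0.24 and -0.24 and the adjusted p 0.0791, 0.0763, 0.0729 and 0.0753, in a range from 0.00115 over the alternatives. GPS2, an inhibitory subunit that binds the same core, read 9.36, 9.37 and 9.25 against 9.35, 9.42 and 9.43, a difference of 0.08 with a 95% interval of -0.07 to 0.23.

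All 4 listed SIN3 complex genes rose, where 35.8% of all tested genes did. The scaffold SIN3A, which holds HDAC1 and HDAC2 and binds sequence-specific repressors, read 8.56, 8.63 and 8.11 in uninduced and 9.48, 9.44 and 9.38 in induced samples. It was 1.99-fold higher (log2 difference 0.99 ± 0.14, SE; limma, adjusted p = 6.56e-04), with 2 of its 3 tested probe sets called. SIN3B, the second scaffold, read 6.25, 6.24 and 5.66 against 6.56, 6.73 and 6.61 and was 1.5-fold higher (limma, adjusted p = 0.0181). For both scaffolds uninduced replicate 3 was the lowest array. Without it SIN3B rose by 0.39 on the log2 scale (adjusted p = 0.00485), and its call was lost without induced replicate 2 (0.53, adjusted p = 0.0619) and with no filter (adjusted p = 0.0861). SAP30, which stabilises the complex and contacts DNA and repressors, read 12.15, 12.20 and 12.13 against 12.82, 12.92 and 12.82. It was 1.62-fold higher (log2 difference 0.70 ± 0.06, SE; limma, adjusted p = 7.53e-05), and all 3 of its tested probe sets rose, by 0.69 to 0.73. SAP18, which also serves in RNA processing complexes, read 12.79, 12.73 and 12.60 against 12.89, 13.01 and 12.86 and was 1.16-fold higher (limma, adjusted p = 0.0463). That SAP18 call was lost under 9 of the 16 alternatives, among them median centring (0.14, adjusted p = 0.0744) and leaving out uninduced replicate 2 (0.23), uninduced replicate 3 (0.16), induced replicate 1 (0.23), induced replicate 2 (0.17) or induced replicate 3 (0.25), with an adjusted p of 6.92e-04 to 0.133 over the alternatives. Its other probe sets rose more, by 0.63 and 0.49.

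The histone chaperones RBBP4 and RBBP7 are shared by the SIN3, NuRD and PRC2 complexes. RBBP7 read 12.96, 12.96 and 12.81 in uninduced and 13.12, 13.24 and 13.14 in induced samples and was 1.19-fold higher (limma, adjusted p = 0.017), a call lost without induced replicate 2 (0.22, adjusted p = 0.0551, in a range from 0.00185). RBBP4 read 13.42, 13.40 and 13.24 against 13.46, 13.52 and 13.55 at its brightest probe set, 210371_s_at, and the difference of 0.16 missed the threshold (limma, adjusted p = 0.0913). Its other probe sets gave a different picture, since 4 of the 6 rose, by 0.62 to 0.86. With the mean over its probe sets RBBP4 rose by 0.55 (limma, adjusted p = 1.46e-04). With the probe sets named _x_at and _s_at left out, it rose by 0.84 (limma, adjusted p = 1.43e-04, in a range up to 0.257). It also passed after quantile normalization and with a trended and robust eBayes.

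The CoREST scaffolds join HDAC1 and HDAC2 to the histone demethylase KDM1A. RCOR3 read 8.23, 8.16 and 7.93 in uninduced and 8.87, 8.83 and 8.78 in induced samples and was 1.65-fold higher (log2 difference 0.72 ± 0.09, SE; limma, adjusted p = 4.16e-04). Its other probe sets differed by 0.30 and -0.31 and did not pass, and the mean over the 3 did not pass either (0.24, adjusted p = 0.0858, the highest over the alternatives in a range from 6.17e-05). RCOR1 read 10.87, 10.94 and 10.81 against 11.07, 10.95 and 10.95, and its difference of 0.11 did not pass (95% interval -0.05 to 0.27).

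The NuRD complex pairs deacetylation with ATP-dependent nucleosome remodelling. Of its 7 genes 2 rose, 1 fell and 4 did not pass, where 35.8% of all tested genes rose and 30.7% fell. MTA3, one of the MTA scaffolds that bind HDAC1 and HDAC2, read 4.44, 4.51 and 4.31 in uninduced and 5.15, 5.39 and 5.75 in induced samples. It was 2.01-fold higher (limma, adjusted p = 9.86e-04) at a level close to the filter, and on the log2(intensity + 16) scale the rise was 0.66 in place of 1.01. MTA1, the most studied of the 3 scaffolds, read 10.95, 10.97 and 10.76 against 10.61, 10.63 and 10.68 and was 1.19-fold lower (limma, adjusted p = 0.0255). The MTA1 call was lost without uninduced replicate 1, uninduced replicate 2, induced replicate 1, induced replicate 2 or induced replicate 3, with differences of -0.22, -0.21, -0.23, -0.25 and -0.27 in that order and an adjusted p of 0.00187 to 0.0859 over the alternatives. MTA2 read 5.36, 5.34 and 4.95 against 5.38, 5.70 and 5.40, a difference of 0.28 that did not pass (95% interval -0.05 to 0.61).

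The remodelling ATPase CHD4 read 10.02, 9.98 and 9.77 in uninduced and 10.26, 10.33 and 10.23 in induced samples and was 1.28-fold higher (limma, adjusted p = 0.0084), with 2 of its 3 probe sets called. Its paralogue CHD3 read 7.60, 7.55 and 7.32 against 7.21, 7.33 and 7.25, and the difference of -0.22 did not pass (limma, adjusted p = 0.067). CHD3 passed after quantile normalization, after median centring, with array weights and without uninduced replicate 3 (-0.31, adjusted p = 0.00701), in a range up to 0.193. MBD2, which binds methylated DNA, and MBD3, which does not, define alternative forms of NuRD. They differed by -0.09 and -0.01 with 95% intervals of -0.22 to 0.05 and -0.27 to 0.24. MBD2 passed with no filter (adjusted p = 0.0409, in a range up to 0.402), and for MBD3 the dimmest of 3 probe sets, 222183_x_at, fell by 0.28.

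The Groucho corepressors TLE1, TLE3 and TLE4 bind DNA-bound factors such as RUNX and TCF proteins. TLE4 read 9.73, 9.75 and 9.62 in uninduced and 10.07, 9.96 and 9.99 in induced samples and was 1.24-fold higher (limma, adjusted p = 0.00562). Its other 2 tested probe sets did not pass, and the mean over the 3 differed by 0.08 (adjusted p = 0.454, in a range from 0.00232). TLE3 read 8.89, 8.65 and 8.41 against 8.59, 8.65 and 8.52 and did not pass (-0.07, 95% interval -0.36 to 0.22), while 228340_at, 1 of its 4 probe sets, rose by 0.47 (adjusted p = 0.0202). TLE1 lay below the filter at all 5 of its probe sets.

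CTBP1, a corepressor that senses NADH, read 12.71, 12.67 and 12.44 against 12.67, 12.82 and 12.70 and did not pass (0.12, 95% interval -0.09 to 0.34). One of its 3 tested probe sets, 213980_s_at, rose by 0.21 (limma, adjusted p = 0.0294). Its paralogue CTBP2 lay below the filter at all 6 probe sets. BCOR, a corepressor of BCL6 and a subunit of a variant Polycomb complex, lay below the filter at all 4 probe sets. Its relative BCORL1 read 7.80, 7.50 and 7.65 in uninduced and 7.82, 7.91 and 7.87 in induced samples. The difference of 0.22 missed the threshold (limma, adjusted p = 0.0643) and passed with array weights and without uninduced replicate 1 (0.29, adjusted p = 0.0241, in a range up to 0.291).

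Both listed PRC2 subunits rose, where 35.8% of all tested genes did. SUZ12 and EED are core partners of the histone H3 lysine methyltransferase EZH2 in Polycomb repressive complex PRC2. SUZ12 read 12.03, 12.01 and 11.87 in uninduced and 12.44, 12.49 and 12.50 in induced samples and was 1.42-fold higher (log2 difference 0.51 ± 0.07, SE; limma, adjusted p = 5.16e-04). A dimmer SUZ12 probe set, 1566191_at, lay below the filter on all uninduced arrays and read 4.96, 4.20 and 4.29 in induced samples, at least 1.40-fold higher (adjusted p = 9.01e-04). It passed the filter through the induced arrays alone, so its direction was set by the filter. EED read 11.41, 11.44 and 11.24 against 11.67, 11.60 and 11.62 and was 1.20-fold higher (limma, adjusted p = 0.0169). The EED call was lost without induced replicate 1 (0.24, adjusted p = 0.056, in a range from 0.00512).

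Probe sets of the same gene were compared because the choice of the brightest one decides some calls. Of the 78 tested probe sets of these genes 34 rose and 11 fell, and 62.5% of all tested probe sets were called. Of 18 genes with more than 1 tested probe set, 6 had all of them called in the same direction, 11 had some called in 1 direction and the rest not called, and 1 (BCORL1) had none called. Of the 10 with several called probe sets 0 had calls in both directions, while 5.77% of all such genes did. The 6 were HDAC4, SIRT6, TBL1X, SAP18, SAP30 and SUZ12. For 5 genes, HDAC8, RBBP4, MBD3, TLE3 and CTBP1, the brightest probe set was not called while another was.

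**Figure D4:**
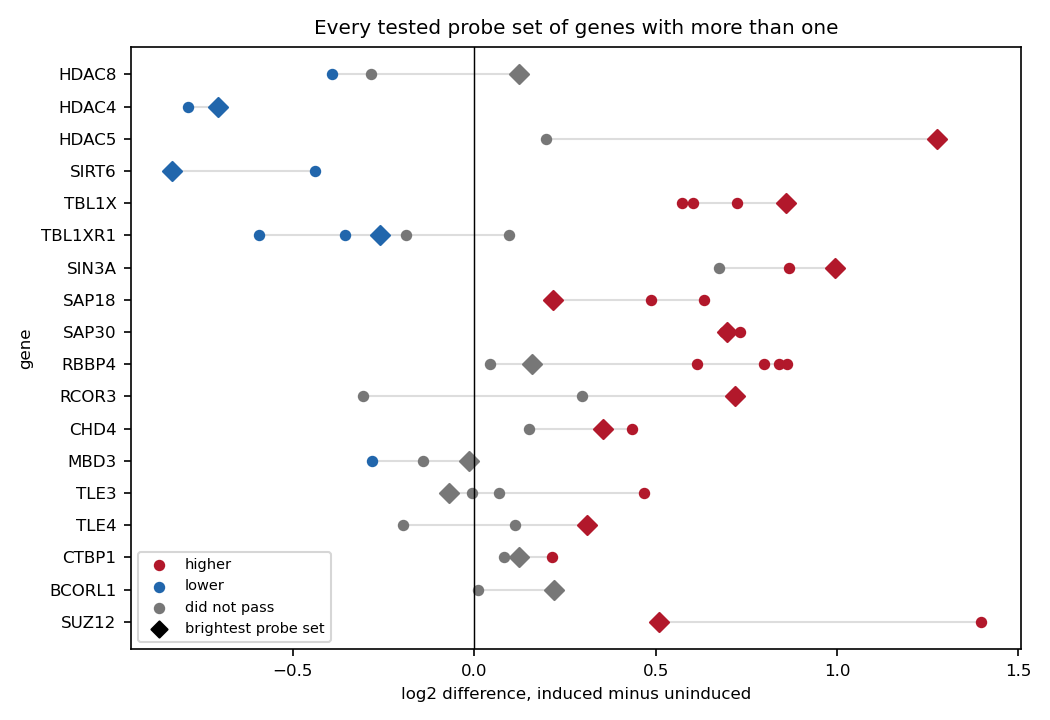
Log2 difference (induced minus uninduced) of every tested probe set of the 18 genes with more than one, coloured by call, with a diamond for the brightest probe set. For RBBP4 the diamond lies at 0.16 while 4 probe sets lie between 0.62 and 0.86, and for RCOR3 and TLE4 the diamond is the only called probe set.

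Paralogues and enzymes of the same class were also compared within each array, as the log2 ratio of their brightest probe sets, which does not depend on the level of the array. The 16 pairs were chosen after the values of the single genes were seen, and a change in a ratio shows unequal change of its 2 genes, not that either stayed the same. The levels of different probe sets cannot be set against each other, so only the change in each ratio is given. The ratio of HDAC1 to HDAC2 changed by 0.80 ± 0.04 (SE, n = 3 each). The ratio of TBL1X to TBL1XR1 changed by 1.12 ± 0.05, that of RCOR3 to RCOR1 by 0.61 ± 0.08, that of MTA3 to MTA1 by 1.26 ± 0.15 and that of CHD4 to CHD3 by 0.58 ± 0.02 (SE). Against HDAC4, the ratio changed by 1.98 ± 0.15 for HDAC5 and by 1.33 ± 0.21 for HDAC7 (SE). The ratio of SIN3A to SIN3B changed by 0.41 ± 0.07 and that of RBBP4 to RBBP7 by -0.10 ± 0.04 (SE). The tested probe sets of RBBP4 changed by 0.04 to 0.86, however, and RBBP7 by 0.26. Those of RCOR3 changed by -0.31 to 0.72, and RCOR1 by 0.11. For both of these pairs the sign of the change in the ratio depends on the probe set used. Of the 16 pairs 14 gave the smallest two-sided exact permutation p that 3 against 3 allows, 0.1 (0.114 adjusted over the 16 pairs), so none could pass a threshold of 0.05 by this test. MBD3 and MBD2 differed by 0.07 ± 0.13 (SE) in their change, with an exact permutation p of 0.7.

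Further corepressor genes, which include complex subunits, Polycomb genes, DNA-bound repressors and DNA methyltransferases, were taken from a list of 56, written with earlier results of these data known. Of the 42 that were tested 22 rose, 9 fell and 11 did not pass, where 35.8% of all tested genes rose and 30.7% fell. Their median log2 difference was 0.34, beside 0.02 over all tested genes. The 3 with the smallest adjusted p were RERE, a nuclear receptor corepressor of the atrophin family (4.92-fold higher), PHF21A, the CoREST subunit that reads unmethylated histone H3 (3.17-fold higher), and the DNA methyltransferase DNMT3B (2.18-fold higher). The catalytic PRC2 subunit EZH2, chosen after its value was seen because its partners are described above, rose by 0.57 on the log2 scale (limma, adjusted p = 1.48e-04), and KDM1A, the CoREST demethylase, chosen in the same way, fell by 0.48 (adjusted p = 0.0017).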

How the data were processed

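Each of the 6 samples, 3 uninduced and 3 induced for 48 h by their titles, has 1 column in the deposited table. GCRMA, which corrects background, normalizes and summarises each probe set, is the method that the submitters' processing notes name for the deposited intensities, which are linear. Its version is not given in the sources used here. Levels still differed among the 6 arrays, with a 75th percentile over all probe sets of 6.92 on uninduced replicate 3. On the other arrays this percentile was 7.11 to 7.18 (log2). GCRMA draws dim probe sets to a common low value, so changes near that value are compressed. The number of arrays limits the precision.

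Of 54675 probe sets 62 controls were left out. Values under 1 were raised to 1 before log2 was taken. Platform annotation gave 1 symbol to 41091 probe sets; genes were named from these alone. Probe sets above a log2 value of 4 on at least 3 arrays were fitted with limma 3.58.1 in R 4.3.3 (lmFit, eBayes, two-sided, no covariates, Benjamini-Hochberg over 20552). A group with no array above the filter was set to a log2 value of 4, so that its fold is a lower bound. The fit was tested on simulated data. Alternatives changed the filter, scaling, added intensity, eBayes, array weights, replicate block and choice of probe sets, or left out each array in turn. Every listed member is named, with the 3 most significant genes of each background list that had tested genes. Members and lists were chosen with earlier results of these data known. Plots used Python 3.11.15 and matplotlib 3.10.9.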

Additional observations from a re-analysis of the deposited data

How the results depend on the processing

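Over 16 alternatives, 15 of the 23 called genes kept direction and call wherever a value could be had, 8 lost the call under at least 1, 8 uncalled genes gained one and 0 reversed. The count of genes that fell, 5, was 8 after quantile normalization, 9 after median centring and 8 with array weights, while falls over all genes went from 3019 to 3979, 3627 and 3490. With the probe sets named _x_at and _s_at left out, 20 of the 40 genes could be tested, of which 10 rose and 3 fell. Over all probe sets without _x_at and _s_at names, 4365 rose and 3172 fell, of 11968 tested. Leaving out 1 array gave 15 to 19 rises and 3 to 7 falls, beside 3218 to 3344 rises and 2612 to 3262 falls over all genes. Whether same-numbered samples were prepared together is not given in the labels. Deviations of same-numbered arrays from their group means correlated at -0.17, 0.00046 and 0.18, which cannot decide it with 3 arrays a group. With the replicate block 17 genes rose and 4 fell, SAP18 (adjusted p = 0.052) and MTA1 losing their calls. Over all genes the block gave 3463 rises and 2963 falls. Signal near the filter limits HDAC7, HDAC9, HDAC10, SIRT2, SIRT3, MTA2 and MTA3, and 3 arrays a group limit the precision elsewhere.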

Other observations

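Histone acetyltransferases and coactivators, which oppose the deacetylases, were called about as often as all genes. Of 20 listed genes 18 were tested, of which 9 rose, 3 fell and 6 did not pass, where 35.8% of all tested genes rose and 30.7% fell. The median log2 difference was 0.37, beside 0.02 over all tested genes. KAT2B (PCAF), the acetyltransferase of the SAGA-related complex, was 4.18-fold higher (limma, adjusted p = 7.70e-07), while its paralogue KAT2A (GCN5), chosen after its value was seen, was 2.90-fold lower (adjusted p = 8.87e-05). The arginine methyltransferase CARM1, a partner of the nuclear receptor coactivators, was 3.34-fold lower (adjusted p = 6.35e-06), and the coactivator NCOA1 was 3.30-fold higher (adjusted p = 9.02e-06). The list was written with earlier results of these data known.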
